A study of Mus musculus with 8 samples.

Results

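The CXC chemokines of the mouse cornea were followed across 8 one-colour Affymetrix arrays through every probe set that the platform annotation assigns to Cxcl1, Cxcl2, Cxcl5, Cxcl9, Cxcl10, Cxcl12, Cxcl14, Cxcl15 or Cxcl16 alone. This rule found 17 probe sets of 9 genes among 45101 on the array. Per the labels, 4 arrays hold total RNA of corneas from mice that overexpress TGF-beta (TGFB) and 4 hold corneas of wildtype littermates. The labels name neither the TGF-beta isoform, the promoter or tissue that drives it, the strain nor the age, and they do not say that each array is a separate animal. P-values therefore cover only array-to-array spread, part of which may be technical. Array numbers (1 to 4 per group) follow record order and pair nothing.

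CXC chemokines are small secreted proteins that steer leukocytes and other cells through G protein-coupled receptors. Cxcl1, Cxcl2, Cxcl5 and Cxcl15 carry a glutamate-leucine-arginine (ELR) motif before the CXC cysteines and attract neutrophils. CXCR2 is the receptor of Cxcl1, Cxcl2 and Cxcl5. Cxcl1, Cxcl2 and Cxcl5 are known to be induced through NF-kB by interleukin-1 and by injury, in the cornea among other tissues. Cxcl9 and Cxcl10 lack the ELR motif, are induced by interferon and act on CXCR3 of T and NK cells. Cxcl12, Cxcl14 and Cxcl16 are largely homeostatic. Cxcl12 is made by stromal cells, Cxcl14 by epithelia including skin, and Cxcl16 is a membrane-bound chemokine that proteases can shed.

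In the RefSeq gene table Cxcl5, Ppbp, Pf4, Cxcl3, Cxcl15, Cxcl1 and Cxcl2 follow each other on chromosome 5 with 0 annotated protein-coding genes between neighbours. Cxcl9 and Cxcl10 lie further along the same chromosome, and Cxcl12, Cxcl16 and Cxcl14 on chromosomes 6, 11 and 13. RefSeq promoter windows of GRCm38.p6, from 250 bases before to 50 bases after the gene start, were matched for 7 of the 9 members (not Cxcl5 and Cxcl16). The sequences shown are those of the members with a match to the NF-kB pattern, Cxcl1, Cxcl2 and Cxcl10, and of Cxcl3, an ELR neighbour that also holds one. Capitals mark matches on either strand to the NF-kB pattern GGGNNNTTCC, and in Cxcl10 also to the interferon response pattern GAAANNGAAA.
Cxcl1 (chr5:90891135-90891204, plus strand): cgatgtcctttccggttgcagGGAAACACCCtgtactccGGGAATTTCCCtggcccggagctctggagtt
Cxcl2 (chr5:90903789-90903858, plus strand): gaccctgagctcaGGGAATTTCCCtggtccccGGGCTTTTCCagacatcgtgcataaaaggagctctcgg
Cxcl3 (chr5:90785991-90786060, plus strand): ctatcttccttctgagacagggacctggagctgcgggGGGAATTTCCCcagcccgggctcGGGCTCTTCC
Cxcl10 (chr5:92348980-92349109, minus strand): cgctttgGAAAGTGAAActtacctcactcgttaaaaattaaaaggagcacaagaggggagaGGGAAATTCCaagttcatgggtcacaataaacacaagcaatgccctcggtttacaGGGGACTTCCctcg

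The longest run of letters shared by Cxcl1, Cxcl2 and Cxcl3 in the 110 bases before the start was GGGAATTTCCC. It begins 71 bases before the start of Cxcl1, 97 before that of Cxcl2 and 73 before that of Cxcl3, and it matches the NF-kB pattern on both strands. Across all 32851 windows, 14 hold these 11 bases on either strand (0.0426%). The looser pattern GGGNNNTTCC was found in Cxcl1, Cxcl2 and Cxcl10, which are 3 of the 7 members searched, and in 5.56% of all windows. The pattern GAAANNGAAA was found in Cxcl10 and Cxcl14, 2 of 7, and in 3.44% of all windows. The palindromic SMAD pattern GTCTAGAC, searched because SMADs carry TGF-beta signals, was found in 0 of the 7 and in 0.213% of all windows. A pattern this rare is missing from most sets of 7 windows, so its absence sets the members apart from no others. No other SMAD pattern was searched. A match is a description of letters and does not show binding.

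The signals are linear and already scaled by the depositors, with a 2% trimmed mean of 150 on every array, and median signals from 26.3 to 34.4. The corneal markers Krt12 (epithelium) and Kera (keratocytes) were present on all arrays, but not evenly. In its brighter probe set Krt12 had 289 in TGFB 1 and 562 in wildtype 4, against 3008 to 5766 on the other arrays. Kera ran from 2073 to 8110. Transcripts of cornified skin, lens, pigment cells and muscle were present too, and some moved with the groups. All 12 probe sets of pigment cell genes had lower means in TGFB corneas, with a median difference of -1.74 on the log2 scale. Of these, 8 were lower at an unadjusted limma p under 0.05 (3.16% of all probe sets) and 4 without overlap (1.81% of all). Their summed signals were 3142 to 14637 in TGFB against 14318 to 31003 in wildtype arrays. Keratocyte genes were lower in 10 of 12 probe sets (median -0.23), with sums of 24483 to 29884 against 29722 to 46363. The part of this tissue content in the chemokine differences was not tested. The summed signal of 7 cornified epidermis genes was 41695 and 47967 in TGFB 1 and TGFB 2 and 27874 in wildtype 2, against 694 to 1485 on the other 5 arrays. Wildtype 4 had the highest Gapdh 3'/5' signal ratio, which grows with RNA decay (6.41, against 2.19 to 4.31 elsewhere). In RNA of a whole tissue, fewer cells of a type and less RNA per cell cannot be told apart.

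Cxcl14, Cxcl5 and Cxcl2 had higher means in TGFB corneas in every probe set, and Cxcl9 and Cxcl10 lower means. Cxcl1 was higher in 2 of its 3 probe sets and lower in its brightest, while the differences of Cxcl12, Cxcl15 and Cxcl16 lay between -0.11 and 0.18 on the log2 scale. No difference passed the test across all probe sets (limma with Benjamini-Hochberg adjustment, adjusted p from 0.822 to 0.998 for the 17). In limma 0 of 45037 probe sets passed in either direction, with 0% called, so the members share this with the whole array. At an unadjusted p under 0.05, 5 member probe sets of 4 genes were higher, where 2.7% of all probe sets were. At that threshold 1 member was lower, where 3.16% of all were, so 6 differed in either direction (5.86% of all). All 4 TGFB arrays lay above all wildtype arrays for 2 of the 17 (1.47% over all probe sets) and below them for 1 (1.81%). Values below are signals, or log2(signal + 16) where called log2, and each difference is the TGFB mean less the wildtype mean, with limma's standard error (SE). The median log2 difference was 0.092 over the 17 and 0.0090 over all probe sets.

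**Figure D1:**
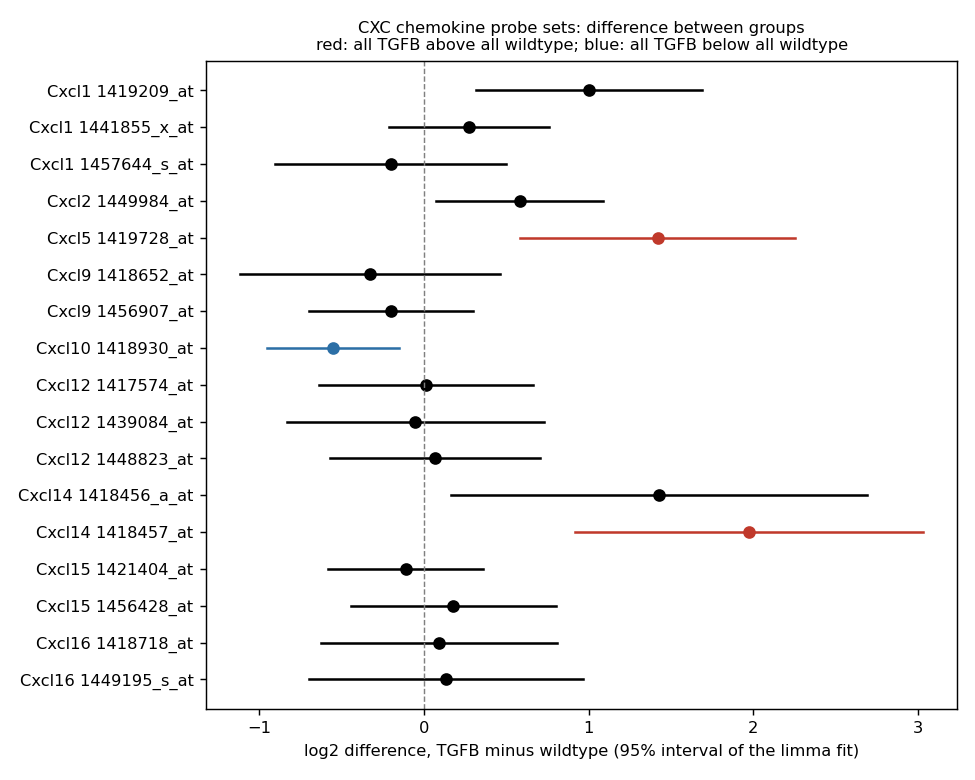
Log2 difference, TGFB minus wildtype (horizontal axis, on log2(signal + 16)), of the 17 probe sets (vertical axis), with dots for the limma estimate and lines for its 95% interval. Both Cxcl14 probe sets lie farthest right at 1.97 and 1.43, next to Cxcl5 at 1.42, and Cxcl10 lies lowest at -0.55.

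Cxcl14 showed the largest difference of the 17 in 1418457_at, and its other probe set stood level with Cxcl5. This order depends on the offset, since with an offset of 1 in place of 16 Cxcl5 had 2.81 and Cxcl14 2.13 and 1.64. It also depends on the 3 arrays with cornified transcripts, without which Cxcl5 had 1.91 and Cxcl14 1.68 and 0.92. Its probe set 1418457_at had signals of 588, 961, 327 and 310 in TGFB 1 to 4 and signals of 51.8, 226, 77.1 and 165 in wildtype 1 to 4. All TGFB arrays were above all wildtype arrays. The log2 means were 8.99 ± 0.75 and 7.01 ± 0.85 (SD, n = 4 each), a difference of 1.97 (SE 0.47, 95% interval 0.92 to 3.03) or 3.93-fold, with limma adjusted p = 0.822 and an exact two-sided permutation p of 0.0286, the smallest that 4 against 4 arrays can give. The second probe set, 1418456_a_at, had signals of 199, 608, 87.8 and 107 in TGFB, against 45.1, 140, 47.4 and 38.5 in wildtype arrays. Here wildtype 2 lay above TGFB 3 and TGFB 4, and the difference was 1.43 (SE 0.56, limma adjusted p = 0.837).

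Cxcl14 was also higher on arrays with cornified epidermis transcripts. Within each group the arrays with the highest signals of both probe sets were those with these transcripts, TGFB 1 and TGFB 2 and wildtype 2. On the 3 arrays that hold them, 1418457_at gave 588 and 961 in TGFB and 226 in wildtype. On the other 5 it gave 327 and 310 against 51.8, 77.1 and 165. The same order on both sets follows from the lack of overlap over all arrays, and among the 3 wildtype 2 is alone in its group. The part of cornified epidermis in the difference was not tested. Without the 3 arrays the difference was 1.68 for 1418457_at and 0.92 for 1418456_a_at (limma adjusted p = 0.987 for both). With the mean of the 7 cornified genes as a covariate it was 1.63 and 0.97 (limma adjusted p = 0.700 and 0.742). For the dimmer probe set the first of these values and the 0.89 without TGFB 2 are below the full value by over 1.5 times. The corneal epithelium genes did not move one way, with 6 of 16 probe sets higher and 10 lower (median -0.24). Krt14, the keratin of basal epithelial cells, had all TGFB arrays above all wildtype arrays in its 3 probe sets, with differences of 1.06 to 1.52. The corneal crystallin Tkt had -0.93 in 1439443_x_at, with all TGFB arrays below, -1.21 in 1451015_at and -0.15 in 1436605_at. Aldh3a1, another corneal crystallin, had -2.05 (SE 1.00). In limma, adjusted p ran from 0.822 to 0.978 over the 7 probe sets of Krt14, Tkt and Aldh3a1. Cdh1 moved the way of Krt14, with signals of 662, 994, 760 and 684 in TGFB against 323, 674, 487 and 293 in wildtype arrays. Its difference was 0.84 (SE 0.26, limma adjusted p = 0.837), and only TGFB 1 lay below wildtype 2. The part of epithelial content in the Cxcl14 values was not tested.

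**Figure D2:**
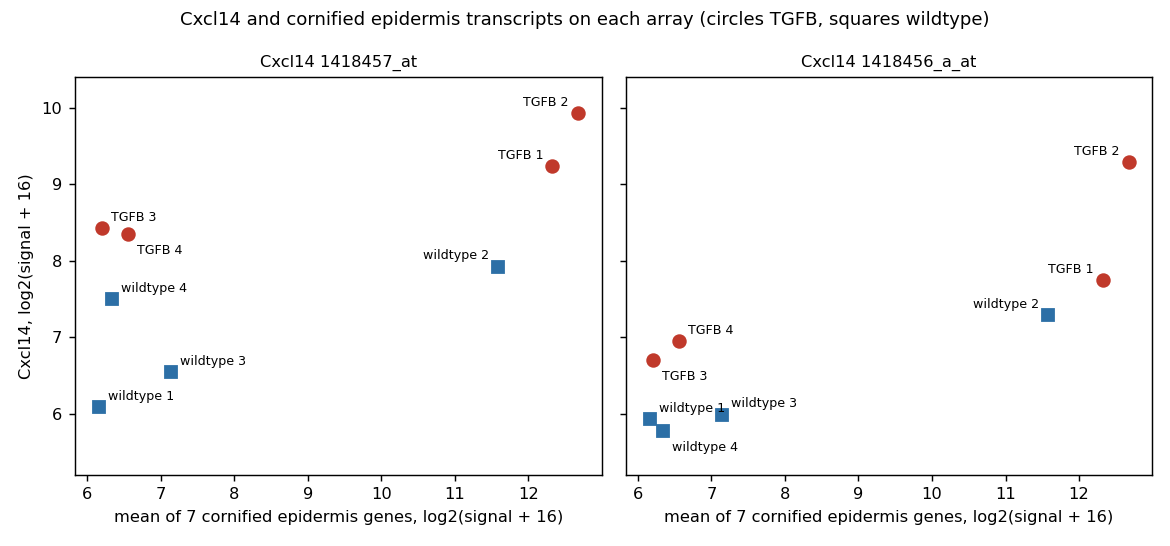
Cxcl14 on each array (vertical axis, log2(signal + 16), left 1418457_at and right 1418456_a_at) against the mean of 7 cornified epidermis genes (horizontal axis, same scale), with circles for TGFB and squares for wildtype. TGFB 1, TGFB 2 and wildtype 2 stand at the right (12.3, 12.7 and 11.6), and at the left TGFB 3 and TGFB 4 lie above the wildtype arrays in both panels.

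Among the ELR chemokines, Cxcl5, Cxcl2 and the dimmest of 3 probe sets of Cxcl1 had higher means in TGFB corneas at an unadjusted p under 0.05, at low signals. Cxcl5, a neutrophil attractant that epithelia make, had signals of 59.4, 8.81, 58.7 and 68.1 in TGFB 1 to 4 and of 8.20, 8.60, 0.352 and 7.56 in wildtype 1 to 4. TGFB 1, TGFB 3 and TGFB 4 stood apart from all other arrays, while TGFB 2 lay at the wildtype level and exceeded the highest wildtype array by little. The difference was 1.42 (SE 0.37, 95% interval 0.59 to 2.26), or 2.68-fold on the scale with the offset, with limma adjusted p = 0.822. It was 1.83 without TGFB 2, and 2.81 with an offset of 1 in place of 16, since the wildtype signals are near the floor of the array.

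Cxcl1, known in the mouse as KC, has 3 probe sets that disagreed. The probe set 1419209_at had signals of 46.6, 34.1, 65.1 and 95.03 in TGFB arrays and of 19.0, 22.1, 7.93 and 39.2 in wildtype arrays. All but TGFB 2 lay above the wildtype arrays, and TGFB 2 was below wildtype 4. The difference was 1.00 (SE 0.30, 95% interval 0.32 to 1.68, limma adjusted p = 0.834). The other probe sets, 1441855_x_at and 1457644_s_at, have no accession in the annotation. Their suffixes mark probes that can also match other transcripts. They gave 100, 95.7, 105 and 190 against 111, 90.0, 78.8 and 104 (difference of 0.27, SE 0.22), and 106, 73.6, 110 and 208 against 105, 125, 114 and 229 (difference of -0.20, SE 0.31). The groups overlapped in both. Which of the 3 reads Cxcl1 best cannot be told from these values.

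Cxcl2, or MIP-2, is a neutrophil attractant that macrophages and epithelia make. It had signals of 4.84, 9.24, 23.3 and 17.9 in TGFB against 4.63, 0.826, 0.717 and 8.13 in wildtype arrays. Only TGFB 2, TGFB 3 and TGFB 4 exceeded the highest wildtype array, and all 8 signals were below the array medians. The difference was 0.58 (SE 0.23, limma adjusted p = 0.837), 1.85 with an offset of 1 and 0.35 with an offset of 32. Cxcl15, or lungkine, is known from lung epithelium and stayed under a signal of 21 on every array in both probe sets, with differences of -0.11 (SE 0.21) in 1421404_at and 0.18 (SE 0.28) in 1456428_at. The latter gave 15.8, 2.85, 17.9 and 17.8 against 4.83, 2.12, 14.1 and 20.98, which overlapped. Cxcl3, an ELR gene beside Cxcl15 on chromosome 5, is outside the 9 members. It had signals of 18.1, 8.05, 24.5 and 70.5 against 5.76, 6.84, 6.29 and 10.9, a difference of 0.82 (SE 0.34, limma adjusted p = 0.839). TGFB 2 again lay within the wildtype range for it.

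**Figure D3:**
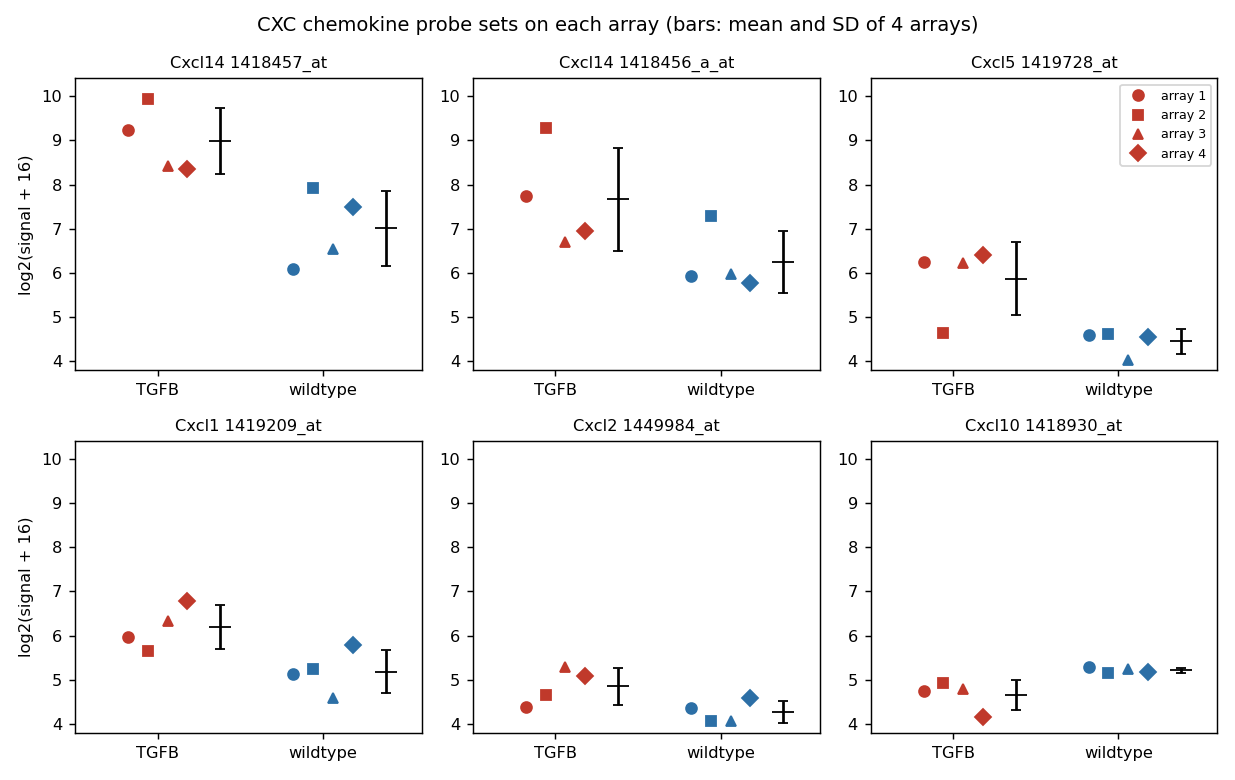
Values of 6 probe sets (vertical axis, log2(signal + 16)) on each TGFB (red) and wildtype (blue) array. Symbols mark array numbers, and bars the mean and SD of 4 arrays. Cxcl1 is shown only by 1419209_at, its probe set with the smallest limma p. All TGFB points lie above all wildtype points for Cxcl14 1418457_at (8.99 against 7.01 on average) and, by little for TGFB 2, for Cxcl5, and below them for Cxcl10.

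The interferon-linked chemokines had lower means in TGFB corneas. Cxcl10, also called IP-10, had signals of 11.1, 14.6, 11.5 and 1.94 in TGFB, against 23.1, 19.4, 21.9 and 20.2 in the wildtype. All TGFB arrays lay below all wildtype arrays, and all 8 signals were below the median of any array. The difference was -0.55 (SE 0.18, 95% interval -0.96 to -0.15, limma adjusted p = 0.837, exact two-sided permutation p = 0.0286). It was -1.28 with an offset of 1 and -0.36 with an offset of 32. Cxcl9, or MIG, gave signals of 15.96, 28.1, 43.7 and 22.8 against 85.7, 46.6, 18.2 and 21.4 in 1418652_at, which overlapped. Its difference was -0.33 (SE 0.35) there and -0.20 (SE 0.22) in 1456907_at, whose signals of 21.7, 17.1, 24.1 and 22.9 lay within the wildtype spread of 23.8, 35.4, 42.2 and 12.5. Wildtype 1 had the highest value of the first, and without it the difference was -0.019.

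The homeostatic Cxcl12 and Cxcl16 overlapped between the groups in every probe set. Cxcl12, also called SDF-1, had signals of 1928, 795, 775 and 935 in TGFB, against 1070, 1149, 885 and 852 in wildtype arrays in its brightest probe set 1448823_at, a difference of 0.065 (SE 0.28, 95% interval -0.57 to 0.70). TGFB 1 alone was high, and without it the difference was -0.23. The probe set 1417574_at gave 617, 297, 525 and 710 against 547, 356, 492 and 695 (difference of 0.0098, SE 0.29). The third, 1439084_at, was dim, with signals from 4.60 to 36.2 and a difference of -0.053 (SE 0.35). The 95% interval of 1417574_at ran from -0.64 to 0.66, so equal levels are not shown.

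Cxcl16 had signals of 97.9, 98.3, 182 and 211 in TGFB, against 101, 110, 107 and 234 in wildtype arrays in 1418718_at. TGFB 3, TGFB 4 and wildtype 4 were high and the other 5 arrays lay between 97.9 and 110. The second probe set, 1449195_s_at, had signals of 52.8, 71.6, 141 and 170 against 89.5, 92.7, 48.6 and 147, and the same 3 arrays were its highest. The differences were 0.092 (SE 0.32) and 0.13 (SE 0.37), with limma adjusted p of 0.982 and 0.978. Adam10 and Adam17, the proteases known to shed Cxcl16, had differences of -0.0085 (SE 0.18) in 1428103_at and -0.26 (SE 0.16) in 1421858_at, the brightest probe set of each.

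No receptor of these chemokines passed the test, and all but Ackr3, Ackr1 and Cxcr4 had a mean signal below the median of every array. Of 8 receptor genes listed, 7 were measured in 8 probe sets, with a median difference of -0.23. In limma 0 passed, and 1 was lower at an unadjusted p under 0.05, where 3.16% of all probe sets were. Cxcr2, which binds Cxcl1, Cxcl2 and Cxcl5, stayed between 1.27 and 9.28 on every array (difference of 0.14, SE 0.16). Cxcr3, the receptor of Cxcl9 and Cxcl10, had signals of 24.3, 24.5, 11.0 and 24.1 against 39.5, 31.7, 24.1 and 18.6 (-0.26, SE 0.20). Cxcr4, the receptor of Cxcl12, had 40.6, 59.5, 33.2 and 25.7 against 24.5, 50.4, 36.2 and 37.6 (0.055, SE 0.22). Cxcr6, the receptor of Cxcl16, had -0.35 (SE 0.14) in 1422812_at and -0.20 (SE 0.19) in 1425832_a_at, and both stayed under 16. Ackr3, a scavenging receptor of Cxcl12, had 516, 563, 531 and 551 against 1002, 915, 806 and 386 (-0.43, SE 0.27), with wildtype 4 below all TGFB arrays. Ackr1, which vascular endothelium carries, had -0.33 (SE 0.23) and Cxcr5 -0.14 (SE 0.15).

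Genes of interleukin-1 and NF-kB signalling had mostly higher means in TGFB corneas, without a call. Of 16 genes listed, 15 were measured in 28 probe sets. In limma 0 passed, 24 had higher and 4 lower means, and 6 were higher and 0 lower at an unadjusted p under 0.05, with a median difference of 0.17. Over all probe sets 51.6% had a higher mean, and 2.7% were higher and 3.16% lower at that threshold. The adhesion molecule Icam1, which neutrophils bind, had signals of 339, 351, 355 and 527 against 274.5, 192, 221 and 281, with no overlap (0.66, SE 0.19). The cytokine Il6 had 9.04, 7.94, 24.4 and 22.9 against 4.63, 0.251, 1.01 and 6.01 (0.73, SE 0.21), with no overlap but at dim signals. The NF-kB cofactor Nfkbiz had a difference of 0.49 (SE 0.20) in 1417483_at, but 0.22 in 1448728_a_at and 0.016 in 1457404_at. The alarmin Il1a had 0.75 (SE 0.30). For Icam1, Il6, Nfkbiz 1417483_at and Il1a, limma adjusted p lay between 0.834 and 0.837. Among 6 genes of chemokine cleavage, the gelatinase Mmp9 had 53.5, 16.2, 44.4 and 59.1 against 3.54, 4.37, 6.71 and 21.3 in 1448291_at (1.23, SE 0.30, limma adjusted p = 0.822). TGFB 2 lay within the wildtype range for it, and near it for Cxcl5. Over the 15 probe sets of these 6 genes 0 passed limma. The peptidase Dpp4, which clips Cxcl10, had -0.52 (SE 0.20) in 1441342_at and -0.64 (SE 0.50) in its brightest probe set. Its other probe sets had 0.052 (SE 0.13) in 1438279_at and -0.20 (SE 0.20) in 1459973_x_at.

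**Figure D4:**
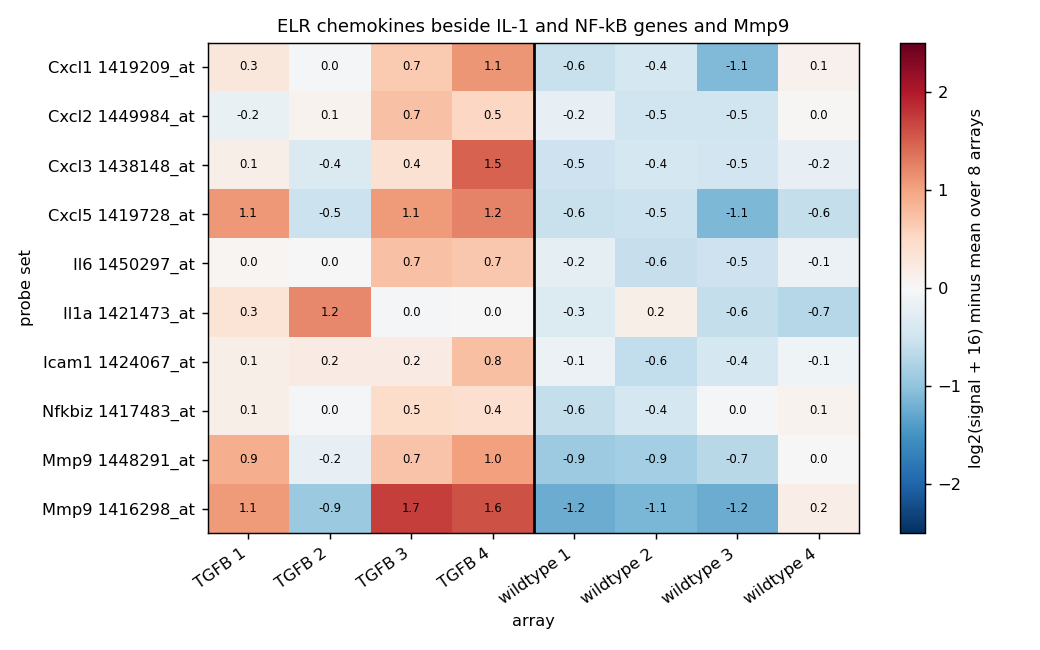
Heat map of log2(signal + 16) minus the mean over 8 arrays (colour and printed number), with arrays across and probe sets of Cxcl1, Cxcl2, Cxcl3, Cxcl5, Il6, Il1a, Icam1, Nfkbiz and Mmp9 down. Each gene is shown by its probe set with the smallest limma p, and Mmp9 by both. Il6, Il1a, Icam1, Nfkbiz and Mmp9 were themselves picked from their lists by smallest p. Higher TGFB values in the map therefore follow in part from this choice. Of the 28 probe sets in the list of interleukin-1 and NF-kB genes, 4 had lower means in TGFB corneas. Cxcl1 is thus 1419209_at (difference of 1.00), not 1441855_x_at (0.27) or 1457644_s_at (-0.20). TGFB 3 and TGFB 4 lie above the mean except for Il1a, where they are at it. TGFB 2 lies below the mean for Cxcl3, Cxcl5 and both Mmp9 probe sets.

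Interferon-response genes had 12 of 17 probe sets with a lower and 5 with a higher mean in TGFB corneas, of 14 genes measured among 16 listed. Over all probe sets 51.6% had a higher mean. In limma 0 of the 17 passed, and 0 had an unadjusted p under 0.05, where 5.86% of all probe sets did. Their median difference was -0.13. The interferon-induced Ifit3 had signals of 22.7, 38.4, 60.2 and 44.3 against 229, 48.2, 113 and 46.6 (-0.93, SE 0.43, limma adjusted p = 0.846). Wildtype 1 stood highest for it, as for Cxcl9 1418652_at. Ifng itself stayed under 6.5 on every array.

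Markers of the cells these chemokines attract overlapped between the groups in their summed signals. Of 13 neutrophil markers 10 were measured, and their summed signal ran from 587 to 1884 in TGFB, against 192 to 1907 in wildtype arrays. Bright genes weigh most in this sum, with lactoferrin (Ltf) at 1428 in TGFB 3 and S100a8 and S100a9 at 785 and 473 in wildtype 3. The overlap of the sums therefore says little about the dimmer markers. By probe set, 6 had higher and 4 lower means, with a median difference of 0.070. The growth factor receptor Csf3r had a difference of 0.80 (SE 0.24) and the elastase Elane one of -0.63 (SE 0.22), each past an unadjusted p under 0.05 only. Of 12 T and NK cell markers 11 were measured, with sums from 93.1 to 185 in TGFB, against 98.1 to 136 in wildtype arrays. Of these, 7 stayed under a signal of 16 on all arrays. Macrophage markers, all 10 measured, summed to 2511 to 3617 in TGFB, against 2834 to 6186 in wildtype arrays. Of their 16 probe sets 11 had lower and 5 higher means, with a median difference of -0.14. Over all probe sets 51.6% had a higher mean. Adgre1, the F4/80 antigen, had signals of 191, 185, 104 and 129 against 262, 222, 282 and 431, a difference of -0.90 (SE 0.25, limma adjusted p = 0.833). All its TGFB arrays lay below all wildtype arrays, as for 1.81% of all probe sets. The part of these cells in the chemokine values was not tested.

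For each member whose brightest probe set had a mean signal over 50, the genes with the most similar pattern over the 8 arrays were listed among 10920 others, as a description with Pearson's r on the log2 values. The arrays share group, tissue content and RNA quality. For Cxcl14 they were Marchf3 (0.980), Hdc (0.979) and Rassf10 (0.978). For Cxcl16 they were the scavenging chemokine receptor gene Ackr4 (0.984), Ago3 (0.982) and Phkg2 (0.978). For Cxcl12 they were Cdk19 (0.959), Alpl (0.932) and Dock9 (0.919). For Cxcl1, through 1457644_s_at, they were Eif2b2 (0.956), Mios (0.942) and Itpa (0.941).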

How the data were processed

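Corneal RNA of 8 mouse samples (4 TGFB, 4 wildtype) was measured on arrays. Values were deposited as linear intensities per probe set, and the tool that made them is not given in the sources used here. Equal trimmed means show that the depositors scaled them, so no normalization was added. The 64 control probe sets were left out, and log2(signal + 16) of 45037 probe sets was fitted by group with limma (version 3.58.1, R 4.3.3, lmFit and eBayes). The total degrees of freedom were 9.22, p-values were adjusted by Benjamini and Hochberg's method over these probe sets, and the threshold was 0.05. Because members are probe sets, each was its own unit, and 1 probe set per gene was an alternative. A platform annotation of 2016 gave 1 symbol to 34945 probe sets, several to 932 and none used here to 9160. All 9 members matched RefSeq by Entrez ID. This fit was tested on simulated data. Their noise was independent for each probe set and array, so shared tissue content and RNA quality were not part of that test. Depth has no counterpart on arrays, and their number limits the precision. Members and lists were chosen with earlier results of these data known. The named genes are all members, the receptors, up to 4 genes per other list by smallest p, and the most similar genes. Pf4, Cxcl17, Krt12, Adam10, Ifng, S100a8 and S100a9 were named beside this rule, after their values were seen.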

Additional observations from a re-analysis of the deposited data

Results flagged for a closer look

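In 34 sets of 4 arrays (17 probe sets in 2 groups), 7 had an array whose gap to its nearest neighbour took up more of the group's range than Dixon's 95% limit allows, where chance gives about 1 in 20. For Cxcl5, TGFB 2 lay below the other TGFB arrays (gap over range 0.903), and wildtype 3 below the other wildtype arrays (0.894), the latter at a signal of 0.352. For Cxcl1 1441855_x_at, TGFB 4 lay above the rest (0.863). For Cxcl12 1439084_at, TGFB 4 did so (0.833). For Cxcl14 1418456_a_at, wildtype 2, an array with cornified transcripts, lay above the other wildtype arrays (0.856). For Cxcl15 1456428_at, TGFB 2 lay below the others (0.890), all at dim signals. For Cxcl16 1418718_at, wildtype 4, the array with the high Gapdh 3'/5' ratio, lay above the others (0.895).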

How the results depend on the processing

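The count of member probe sets past the threshold was 0 under all 11 other processing settings and, with single arrays left out, 0 to 0. The smallest adjusted p of a member fell to 0.231 without wildtype 4, where Cxcl14 1418457_at had 2.14 and Cxcl1 1419209_at 1.20. At an unadjusted p under 0.05 the count was 6 of 17 for the members and 34 of 207 for the other lists, against 5.86% of all probe sets. Without wildtype 4, 2 of all 45037 probe sets passed, neither of them a member. Cxcl1 1419209_at and 1441855_x_at, Cxcl2, Cxcl5, Cxcl9, Cxcl10, Cxcl14 and Cxcl15 1456428_at kept their direction in every setting that tested them. Some of these came close to 0 with 1 array left out: Cxcl1 1441855_x_at gave 0.065 without TGFB 4, Cxcl15 1456428_at 0.013 without wildtype 2, Cxcl9 1456907_at -0.054 without wildtype 3 and Cxcl9 1418652_at -0.019 without wildtype 1. The signs of the others were not settled. Without the 3 arrays with cornified transcripts, Cxcl1 1457644_s_at gave 0.10, Cxcl12 1439084_at 0.18, Cxcl12 1448823_at -0.13 and Cxcl15 1421404_at 0.015. With the cornified score as a covariate, Cxcl12 1439084_at gave 0.091 and 1448823_at -0.053. Array weights gave 0.14 for Cxcl12 1439084_at, and median centring -0.019 for 1417574_at. Over single arrays left out, Cxcl1 1457644_s_at ran from -0.45 to 0.025, Cxcl12 1417574_at from -0.16 to 0.26, 1439084_at from -0.32 to 0.24 and 1448823_at from -0.23 to 0.20, Cxcl16 1418718_at from -0.090 to 0.35 and 1449195_s_at from -0.099 to 0.38. The cause was not tested. Signals near or below 16 limit Cxcl2, Cxcl5, Cxcl10 and Cxcl15, whose differences grow or shrink with the offset.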

Other observations

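The other CXC chemokine genes of the array showed patterns that cut across the groups. Ppbp, the precursor of a platelet CXC chemokine, had signals of 193, 39.1, 2395 and 2555 in TGFB 1 to 4 and of 35.3, 24.9, 22.6 and 1037 in wildtype 1 to 4 (difference of 2.43, SE 1.45, limma adjusted p = 0.894). TGFB 3, TGFB 4 and wildtype 4 were high, as for Cxcl16. Its chromosomal neighbour Pf4, the other platelet CXC chemokine, had 1051, 1137, 504 and 517 against 1140, 1260, 1061 and 489, and the same 3 arrays were its lowest. Lactoferrin (Ltf), a gene of neutrophil granules and secretory epithelia, had 387, 188, 1428 and 944 against 66.0, 353, 147 and 594, and the collectin Sftpd 33.6, 23.0, 707 and 483 against 12.2, 220, 65.0 and 392.1. Both were again highest on those 3 arrays. Cxcl17, an epithelial CXC chemokine, had 41.3, 45.6, 130 and 105 against 21.8, 164, 58.0 and 142, with wildtype 2 highest. Cxcl13, a B cell attractant, had differences of 0.29 (SE 0.32) and -0.15 (SE 0.22), and Cxcl11, which the gene table lists as a pseudogene in this genome, -0.48 (SE 0.57) and -0.26 (SE 0.17). Ltf and Sftpd were picked from the genes the naming rule allows after their values were seen, and Pf4 and Cxcl17 lie outside it.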
